A study of Mus musculus with 6 samples.

Results

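Fgf5, Otx2, Pou3f1, Sox3, Zic2, Zic5, Sox4 and Foxd3 are genes used as markers of the formative and primed epiblast, and their mRNA was measured by RNA-seq in mouse embryonic stem cells (ESCs) depleted of cohesin or condensin subunits. They were chosen by name, each as the RefSeq transcript row with most counts, and are 8 of the 20706 genes with a symbol. Each of the 8 had 1 row. All libraries came from V6.5, a C57BL/6-129 mouse ESC line that is grown on irradiated fibroblasts and was kept for 1 passage without them before RNA was taken. Every culture received a lentiviral short hairpin RNA (shRNA) and puromycin, per the labels at 0.5 and then 1 µg/ml for 48 hours each, starting 24 hours after infection, while the study's methods give another concentration. There was 1 library for the control hairpin against GFP, 1 for a hairpin against the cohesin subunit SMC1, and 2 each for the condensin II subunit CAPH2 and for SMC2, the subunit shared by both condensins. The libraries of a pair carried different hairpins against the same target and are called R1 and R2 as in the sample titles, although the labels also give the CAPH2 hairpins other numbers. The labels do not say that they came from separate cultures, and the GFP and SMC1 hairpins were not repeated.

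The epiblast of the mouse embryo passes from a naive state, which ESCs resemble, through a formative state to a primed state that precedes the formation of the germ layers. On this path naive factors such as Esrrb, Klf4 and Prdm14 are switched off, while Otx2 and Pou3f1 act as transcription factors of the formative state and Fgf5 is a secreted growth factor of the early postimplantation epiblast. Pou5f1 and Sox2 stay on in both states. Several of the 8 genes are also expressed in early neural tissue, Sox3, Zic2, Zic5 and Sox4 among them, and Foxd3 is needed in both the epiblast and the neural crest.

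Total counts per library ranged from 25467427 to 31337313. Of the targets, Smc1a was left at 39.9% of the GFP level in the SMC1 library, Ncaph2 at 21.0% and 34.8% with CAPH2 R1 and R2, and Smc2 at 70.7% and 71.9% with SMC2 R1 and R2. Relative to library size, the targets also moved in the other libraries. With SMC1, Ncaph2 was at 67.3% and Smc2 at 157.4% of GFP. Smc1a was at 115.6% to 130.2% of GFP with the condensin hairpins. Smc2 was at 158.9% and 152.4% with CAPH2 R1 and R2, and Ncaph2 at 79.6% and 80.9% with SMC2 R1 and R2. Pou5f1, the defining ESC factor, was at an RPKM (read count divided by exon length and by library size) of 1285 with GFP and 785 with SMC1. Synthetic ERCC RNAs had been added by cell number, and scaling to them in place of library size moved the median log2 change of all tested rows with SMC1 from 0.03 to 0.90. Changes are therefore given relative to library size, and the ERCC value is stated where it turns the direction of a member with SMC1.

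The 250 bases before the annotated start were read for the genes that rose with SMC1 (Sox3, Pou3f1, Fgf5 and Sox4) and for Otx2, which did not, to show how unlike these promoters are in sequence. They are given 5′ to 3′ on the gene's strand in mm9, without bases that lie in a GENCODE exon. Capitals mark every match on either strand to 11 searched motifs: the TATA box TATAAA, the CCAAT box CCAAT, the GC box GGGCGG, the E-box CACGTG, the octamer ATGCAAAT, the SOX forms ACAATG and ACAAAG, the OTX form GGATTA, the ZIC form CAGCAGG, the TCF/LEF form CTTTGAT and the CRE TGACGTCA.
Sox3, chrX:58146606-58146827, minus strand: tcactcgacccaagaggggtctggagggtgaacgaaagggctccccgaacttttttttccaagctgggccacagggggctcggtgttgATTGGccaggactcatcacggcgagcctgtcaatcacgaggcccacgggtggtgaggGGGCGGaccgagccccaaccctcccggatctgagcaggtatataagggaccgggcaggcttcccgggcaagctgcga
Pou3f1, chr4:124334639-124334888, plus strand: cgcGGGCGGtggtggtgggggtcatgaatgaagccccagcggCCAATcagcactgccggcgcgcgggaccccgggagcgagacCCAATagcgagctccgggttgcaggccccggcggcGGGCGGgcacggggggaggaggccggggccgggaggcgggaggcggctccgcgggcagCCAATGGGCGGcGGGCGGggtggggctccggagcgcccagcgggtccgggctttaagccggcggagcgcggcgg
Fgf5, chr5:98682953-98683202, plus strand: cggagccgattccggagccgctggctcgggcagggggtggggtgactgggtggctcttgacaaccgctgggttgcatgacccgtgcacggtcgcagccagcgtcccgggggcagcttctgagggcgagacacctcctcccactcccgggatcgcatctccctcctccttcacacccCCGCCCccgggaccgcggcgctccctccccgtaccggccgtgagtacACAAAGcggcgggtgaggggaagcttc
Sox4, chr13:29045583-29045801, minus strand: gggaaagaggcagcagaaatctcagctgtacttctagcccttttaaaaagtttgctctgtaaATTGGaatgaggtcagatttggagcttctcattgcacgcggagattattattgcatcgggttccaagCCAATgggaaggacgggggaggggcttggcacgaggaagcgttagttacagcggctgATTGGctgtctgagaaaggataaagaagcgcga
Otx2, chr14:49282548-49282797, minus strand: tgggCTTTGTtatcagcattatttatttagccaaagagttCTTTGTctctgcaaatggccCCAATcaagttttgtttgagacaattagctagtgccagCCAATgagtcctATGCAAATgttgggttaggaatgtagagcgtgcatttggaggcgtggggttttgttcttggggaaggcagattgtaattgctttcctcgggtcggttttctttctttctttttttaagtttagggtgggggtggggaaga

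The windows ranged from a CpG content well above the median of all promoters to one below it. Over the full 250 bases Pou3f1 held 35 CpGs, Zic2 30, Fgf5 24, Foxd3 21, Sox3 16, Zic5 11, Sox4 10 and Otx2 4, against a median of 11 over 20703 promoters. Of the genes that rose with SMC1, Pou3f1, Fgf5 and Sox3 lay above that median and Sox4 close to it. Of those that did not rise, Zic2 and Foxd3 also lay above it, Zic5 at it and Otx2 below it. The GC box was found in Pou3f1 and Zic2 (4 matches each), Sox3 and Fgf5 (1 each), and 46.0% of all promoters held it. The CCAAT box was found in Sox4 (4 matches in the full window), Pou3f1 (3), Otx2 (2) and Sox3 (1), and in 34.9% of all promoters. Otx2 was the only member with the octamer, the recognition sequence of POU factors, at 140 bases before its start, and 1.58% of all promoters held it. The SOX form ACAAAG occurred in Otx2 (2 matches) and Fgf5 (1), against 14.3% of promoters. Foxd3 held 1 E-box and 1 CRE (6.94% and 2.17% of promoters). No member held the exact letters TATAAA (11.5%) or any of the remaining motifs. Variant letters, such as the tatataag of the Sox3 window, were not searched. A match describes the letters only, and no binding was measured here.

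Sox3, Pou3f1, Fgf5 and Sox4 rose with SMC1, by between 1.71 and 4.04-fold in RPKM against GFP. Zic2 fell to 77.5% of GFP, a direction that turned with ERCC scaling, and Zic5, Foxd3 and Otx2 did not pass the test. With CAPH2 and with SMC2 no member passed. The test was edgeR's quasi-likelihood test on counts, fitted to all 6 libraries and 18463 rows, with a call at a Benjamini-Hochberg adjusted p under 0.05. The spread in it comes from the CAPH2 and SMC2 hairpin pairs, so the lone GFP and SMC1 libraries are assumed to vary like these. Its p-values measure only the spread between these libraries, which may be technical.

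**Figure D1:**
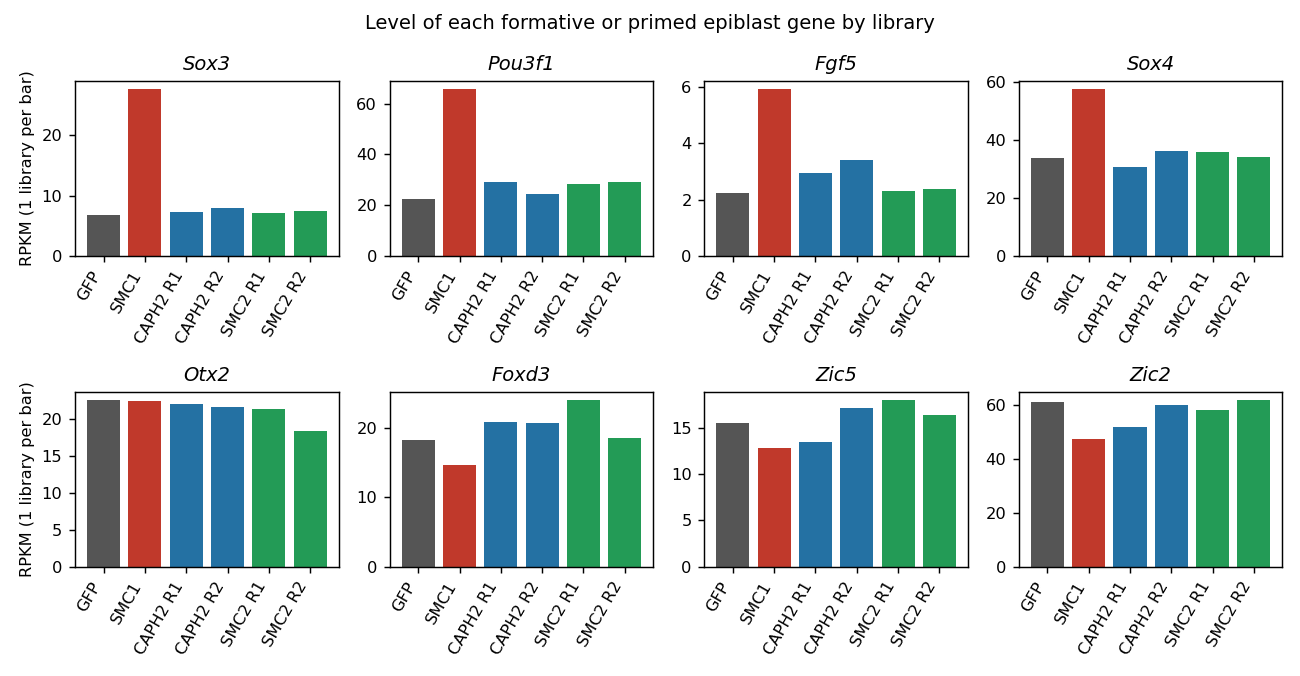
Level in RPKM of each of the 8 genes (1 panel each, linear axis from 0), with 1 bar for each of the 6 libraries. The SMC1 bar is the highest for Sox3, Pou3f1, Fgf5 and Sox4 and the lowest for Zic2, Zic5 and Foxd3 (not so against GFP with ERCC scaling), while the Otx2 bars lie between 18.3 and 22.5.

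Sox3 encodes a SOXB1 transcription factor, a close relative of Sox2 that marks the epiblast and neural progenitors. It is an X-linked gene (NM_009237, chrX:58144541-58146605, minus strand, mm9), and its row has no intron. Its RPKM was 6.84 with GFP, 27.6 with SMC1, 7.31 and 7.95 with CAPH2 R1 and R2, and 7.03 and 7.52 with SMC2 R1 and R2. The SMC1 library stood far above the other 5, which lay between 6.84 and 7.95. These levels rest on 304 counts for GFP and 1096 for SMC1, so that the SMC1 level was 403.5% of GFP with a 95% exact interval of 355.1 to 459.7, which covers counting error only. The log2 change in edgeR was 2.00 ± 0.15 (SE, adjusted p = 1.5e-05), and the change in RPKM was above that of 96.9% of the rows tested.

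Pou3f1 encodes a POU-domain transcription factor (also called OCT6) of the formative epiblast and of early neural cells. Its RPKM (NM_011141, chr4:124334889-124337899, plus strand, no intron in the row) was 22.5 with GFP, 65.7 with SMC1, 29.3 and 24.5 with the CAPH2 hairpins and 28.2 and 29.2 with the SMC2 hairpins. The GFP library was the lowest of the 6 and the SMC1 library the highest, with no overlap between either and the condensin libraries. The log2 change with SMC1 was 1.53 ± 0.13 (SE, edgeR adjusted p = 2.8e-05). At 1457 counts for GFP and 3801 for SMC1, the level with SMC1 was 292.0% of GFP (95% exact interval 274.8 to 310.4).

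Fgf5 encodes the fibroblast growth factor by which the early postimplantation epiblast is often recognised. It was the least abundant of the 8, at an RPKM (NM_010203, chr5:98683203-98706049, plus strand) of 2.23 with GFP, 5.93 with SMC1, 2.95 and 3.40 with the CAPH2 hairpins and 2.31 and 2.37 with the SMC2 hairpins. The SMC1 library was again the highest, the CAPH2 libraries came next, and the SMC2 libraries were close to GFP. Counts were between 120 and 285, so Fgf5 was also the least precise, and the SMC1 level of 265.8% of GFP has an interval of 214.04 to 331.9. The log2 change with SMC1 was 1.40 ± 0.21 (SE, edgeR adjusted p = 0.00055).

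Sox4 encodes a SOXC transcription factor expressed in many progenitor cells besides the epiblast. Its RPKM (NM_009238, chr13:29042599-29045551, minus strand, no intron in the row) was 33.7 with GFP, 57.5 with SMC1, 30.8 and 36.2 with the CAPH2 hairpins and 35.8 and 34.1 with the SMC2 hairpins. The SMC1 library stood above the other 5, and the GFP level fell between those of the CAPH2 hairpins. The log2 change was 0.76 ± 0.12 (SE, edgeR adjusted p = 0.00094). With ERCC scaling the change kept its direction (log2 1.63) but its adjusted p was 0.084. The row overlaps the GENCODE gene Gm17419 on the other strand, and the library kit does not mark strand, so reads of the pair cannot be told apart.

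Otx2 encodes a homeodomain factor that drives the exit from the naive state and is later needed in the anterior brain. Its RPKM (NM_144841, chr14:49277859-49282547, minus strand) was 22.5 with GFP, 22.4 with SMC1, 21.9 and 21.5 with the CAPH2 hairpins and 21.4 and 18.3 with the SMC2 hairpins. SMC2 R2 was the lowest, and the other levels lay between 21.4 and 22.5. The SMC1 level was 99.3% of GFP (95% exact interval 89.9 to 109.8), and the edgeR log2 change was -0.02 ± 0.14 (SE, adjusted p = 0.904), with 0.86 under ERCC scaling. Otx2 itself had 836 counts in the GFP library, more than Sox3 or Fgf5. Relative to library size it differed least of the 8 genes between GFP and SMC1.

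Foxd3 encodes a forkhead factor of the epiblast and neural crest. Its RPKM (NM_010425, chr4:99322990-99325362, plus strand, no intron in the row) was 18.3 with GFP, 14.6 with SMC1, 20.9 and 20.8 with the CAPH2 hairpins and 24.04 and 18.6 with the SMC2 hairpins. The SMC1 library was the lowest of the 6, and the SMC2 hairpins differed from each other by more than GFP differed from SMC1. The log2 change with SMC1 was -0.34 ± 0.17 (SE, edgeR adjusted p = 0.124), and with ERCC scaling its direction turned (0.54). Leaving out any 1 of the 4 condensin libraries brought the adjusted p to between 0.0225 and 0.0474. The row overlaps the GENCODE gene BX005053.1 on the same strand.

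Zic2 and Zic5 encode zinc finger factors of the ZIC family, and they lie head to head on chromosome 14 with 9.73 kb between their starts. The Zic2 RPKM (NM_009574, chr14:122874606-122879550, plus strand) was 61.2 with GFP, 47.4 with SMC1, 51.7 and 60.1 with the CAPH2 hairpins and 58.02 and 61.8 with the SMC2 hairpins. For Zic5 (NM_022987, chr14:122858382-122864880, minus strand) it was 15.6 with GFP, 12.9 with SMC1, 13.4 and 17.1 with the CAPH2 hairpins and 18.03 and 16.4 with the SMC2 hairpins. In both genes the SMC1 library was the lowest and CAPH2 R1 the next lowest. The fall of Zic2 with SMC1 passed the test (log2 -0.38 ± 0.12, SE, edgeR adjusted p = 0.0236), whereas with ERCC scaling its direction turned (log2 0.50, adjusted p = 0.562). For Zic5 the log2 change was -0.29 ± 0.17 (SE, adjusted p = 0.197), and this direction also turned with ERCC scaling (0.59). The ratio of Zic2 to Zic5, which no library scaling can alter, lay between 3.22 and 3.93 in the 6 libraries.

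**Figure D2:**
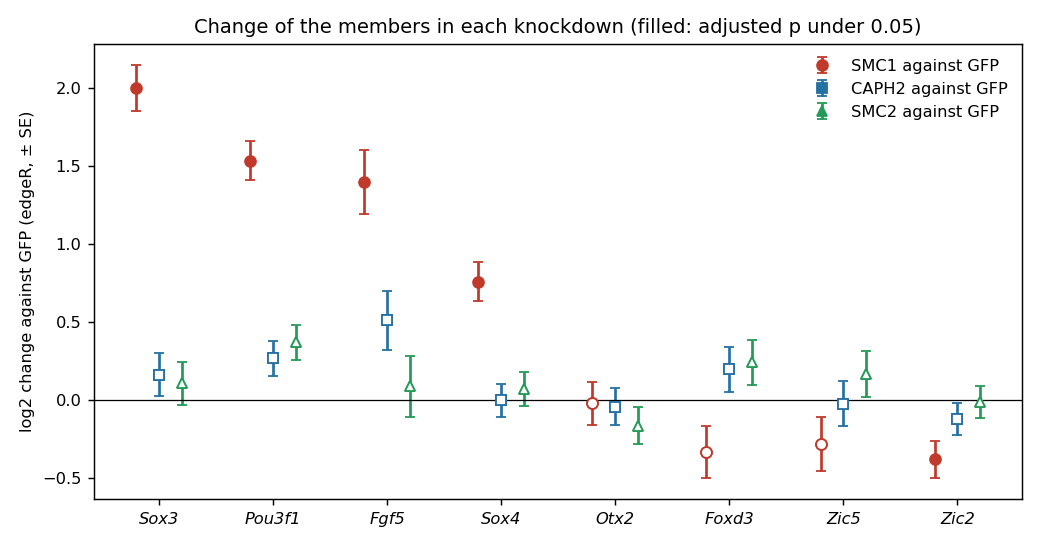
Log2 change of each gene against GFP as fitted by edgeR (points, ± SE) for SMC1, CAPH2 and SMC2, with filled points at an adjusted p under 0.05. Filled points are found only with SMC1, for Sox3 (2.00), Pou3f1 (1.53), Fgf5 (1.40), Sox4 (0.76) and Zic2 (-0.38, which turns to a rise with ERCC scaling).

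Against GFP, 4 of the 8 genes were higher with SMC1 and 1, Zic2, was lower except with ERCC scaling, while 48.5% of all rows tested were called, 25.3% as higher and 23.2% as lower. A log2 RPKM change of at least 1 was reached by 3 of the 8 (Sox3, Pou3f1 and Fgf5) and by 12.5% of all rows. The median log2 RPKM change of the 8 was 0.38, beside 0.03 over all rows. With ERCC scaling all 8 genes were above GFP in the SMC1 library, but the median log2 change of all tested rows was then 0.90. Otx2 (0.86), Zic5 (0.59), Foxd3 (0.54) and Zic2 (0.50) lay below that median. All 8 had at least 120 counts in every library, so none was measured only because it was high in 1 of them. In these bulk samples, a change in how many cells express a gene and a change in mRNA per cell cannot be told apart.

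With CAPH2, 0 of the 8 passed edgeR's test against GFP, while 8.11% of all rows were called. An unadjusted p under 0.05 was found for 2 of the 8, and for 5161 of all 18463 rows. These 2 were Fgf5 (log2 0.51 ± 0.19, SE, adjusted p = 0.117) and Pou3f1 (log2 0.26 ± 0.11, SE, adjusted p = 0.160). Sox3, the gene that rose most with SMC1, was at 106.8% and 116.2% of GFP with the CAPH2 hairpins, and both counting intervals include 100%. Without CAPH2 R2, Pou3f1 passed with an adjusted p of 0.00987. DESeq2's Wald test also called 0 of the 8.

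With SMC2, 0 of the 8 passed edgeR's test against GFP, against 7.15% of all rows called, and DESeq2's Wald test called 0 of the 8 as well. An unadjusted p under 0.05 in edgeR was found for 1 of the 8, and for 4933 of all 18463 rows. Pou3f1 was that gene, at a log2 change of 0.37 ± 0.11 (SE, adjusted p = 0.0756), and both SMC2 hairpins were above GFP (125.6% and 129.7%). Its adjusted p was 0.00317 without CAPH2 R1 and 0.00579 without CAPH2 R2. The other members had adjusted p-values of 0.320 and above. The median log2 RPKM change of the 8 was 0.07 with CAPH2 and 0.08 with SMC2, beside 0.01 and -0.01 over all rows.

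The CAPH2 hairpins differed from each other beyond counting error in 4 of the 8 genes. The share of all rows that did so was not counted, so this does not set these genes apart. Relative to R2, R1 was at 119.8% for Pou3f1 (95% exact interval 111.9 to 128.3), 86.1% for Zic2 (82.1 to 90.3), 85.03% for Sox4 (79.96 to 90.4) and 78.5% for Zic5 (70.9 to 86.9). For Zic5 the hairpins were thus further apart than SMC1 and GFP, where the SMC1 level was 82.8% of GFP. Between CAPH2 and SMC2, the comparison with a hairpin pair on each side, edgeR called 0 of the 8 and 0.0162% of all rows, and DESeq2's Wald test called 0 of the 8. Fgf5 alone of the 8 had an unadjusted p under 0.05 there, at a log2 change of 0.43 ± 0.15 (SE, adjusted p = 1.00). Of all 18463 rows, 575 had such an unadjusted p.

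SMC1 was also set against the 4 condensin libraries together, a comparison that does not use the GFP library. Here 4 of the 8 were higher and 2 lower with SMC1, and 44.4% of all rows were called, 23.1% as higher and 21.3% as lower. Sox3 was higher by a log2 of 1.87 ± 0.10 (SE, edgeR adjusted p = 2.5e-06), Pou3f1 by 1.22 ± 0.09, Fgf5 by 1.10 ± 0.15 and Sox4 by 0.72 ± 0.09. Foxd3 was lower (log2 -0.55 ± 0.14, SE, adjusted p = 0.00932), and so was Zic2 (-0.31 ± 0.10, adjusted p = 0.0250). With ERCC scaling Zic2 turned to 0.11 in RPKM log2, Foxd3 was no longer called (adjusted p = 0.911) and neither was Sox4 (0.114). Otx2 again differed little, by 0.08 ± 0.11 (adjusted p = 0.565), and Zic5 was at -0.36 ± 0.14 (adjusted p = 0.0637), which turned to 0.06 with ERCC scaling. The median log2 RPKM change of the 8 was 0.43, beside 0.01 over all rows, and between CAPH2 and SMC2 it was -0.05, beside 0.01.

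The order of the 8 genes by RPKM, which is a level per exon length, was alike in the GFP and condensin libraries and changed with SMC1. In the GFP library it ran Zic2, Sox4, Otx2, Pou3f1, Foxd3, Zic5, Sox3 and Fgf5, from 61.2 down to 2.23. Otx2 and Pou3f1, both at 22.5, could not be placed in order there, and in the SMC2 libraries Foxd3 stood above Otx2 by less than or about the spread of Foxd3 between hairpins (21.3 ± 3.84, SD, n = 2). With SMC1 the order was Pou3f1, Sox4, Zic2, Sox3, Otx2, Foxd3, Zic5 and Fgf5. Pou3f1 moved from the 69.1 percentile of tested rows by RPKM with GFP to the 91.0 percentile, and Sox3 from 41.6 to 74.8.

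Ratios within a library do not depend on its scaling, and several set a member beside a relative that was more abundant in the GFP library. Sox3 was at 0.0187 of the Sox2 level in the GFP library and at 0.193 with SMC1, against 0.0221 to 0.0247 in the condensin libraries. Pou3f1 was at 0.0175 of Pou5f1 with GFP and 0.0836 with SMC1. Fgf5 was at 0.0125 of Fgf4, the growth factor made by naive ESCs, and at 0.162 with SMC1. All 3 ratios were lowest in the GFP library and highest with SMC1. Their denominators fell with SMC1 (RPKM log2 -1.35 for Sox2, -0.71 for Pou5f1 and -2.28 for Fgf4), so the ratios do not measure the members alone. Fgf4 was also lower with CAPH2 (-0.62) and with SMC2 (-0.48). With ERCC scaling the falls of Pou5f1 with SMC1 and of Fgf4 with SMC2 turned. Pou3f1 and Otx2, which were level in the GFP library (0.998), stood at 2.93 with SMC1.

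**Figure D3:**
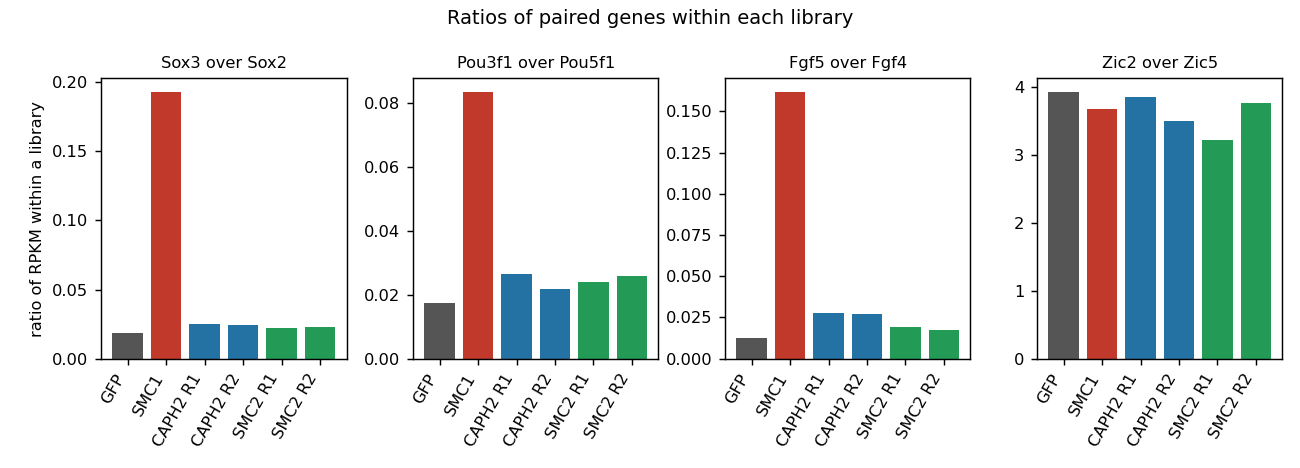
RPKM of Sox3 over Sox2, Pou3f1 over Pou5f1, Fgf5 over Fgf4 and Zic2 over Zic5, with 1 bar per library and linear axes from 0. The first 3 ratios are highest with SMC1 (0.193, 0.0836 and 0.162), and Zic2 over Zic5 stays between 3.22 and 3.93.

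Other formative and primed epiblast genes were counted from a list of 14, all of them tested. With SMC1, 8 were higher and 1 was lower than GFP, and the median log2 RPKM change was 0.60. The largest changes were those of Cdh2, the N-cadherin gene (2.24), of Sall2, a zinc finger gene (1.85), and of Lef1, a transcription factor of the WNT pathway (1.69), while Etv4 fell by 1.28 on the log2 scale. With CAPH2, 3 were higher and 1 lower, and with SMC2 4 were higher and 1 lower, where the fall of Tead2 turned with ERCC scaling. The list was chosen with results of these data known, so its counts are a description.

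Of 15 paralogues of the members, 11 were tested, and 5 were higher and 2 lower with SMC1. Zic1 rose from an RPKM of 0.264 to 2.02 (log2 2.93) and Pou3f3 from 0.288 to 1.02 (1.82), both from low levels, whereas Sox2 fell by 1.35 on the log2 scale from 365.3. The fall of Sox12, the other paralogue called as lower, turned with ERCC scaling. With CAPH2 2 paralogues passed the test and with SMC2 3, each as higher than GFP.

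Among 12 FGF ligands, receptors and targets, 5 were higher and 4 lower with SMC1. Fgf4 was lower (log2 -2.28), as was the receptor gene Fgfr4 (-1.69), and Dusp6, a phosphatase gene induced by FGF signalling, was higher (1.89). The ligand Fgf5 therefore rose while the ligand Fgf4 fell. Spry4, also called as lower, turned with ERCC scaling. With CAPH2 2 of these genes were higher and 1 lower, and with SMC2 3 were higher and 1, Fgf4, was lower, which turned with ERCC scaling.

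Naive pluripotency genes moved together in the opposite direction to the 4 members that rose, while Zic2 was also lower except with ERCC scaling. All 13 were called as lower with SMC1 than with GFP, beside 23.2% of all rows, and none of these directions turned with ERCC scaling. Their median log2 RPKM change was -2.85. This list too was chosen with results of these data known. Tcl1 had the largest fall (-4.01), followed by Prdm14 (-3.82) and Esrrb (-3.29). With CAPH2 2 of the 13 and with SMC2 2 of the 13 were lower, and 1 of the latter, Klf2, turned with ERCC scaling. Of 6 general pluripotency genes 3 were lower with SMC1, namely Sox2, Utf1 (-0.87) and Pou5f1 (-0.71), of which Pou5f1 turned with ERCC scaling, and 1 was higher with either condensin target.

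**Figure D4:**
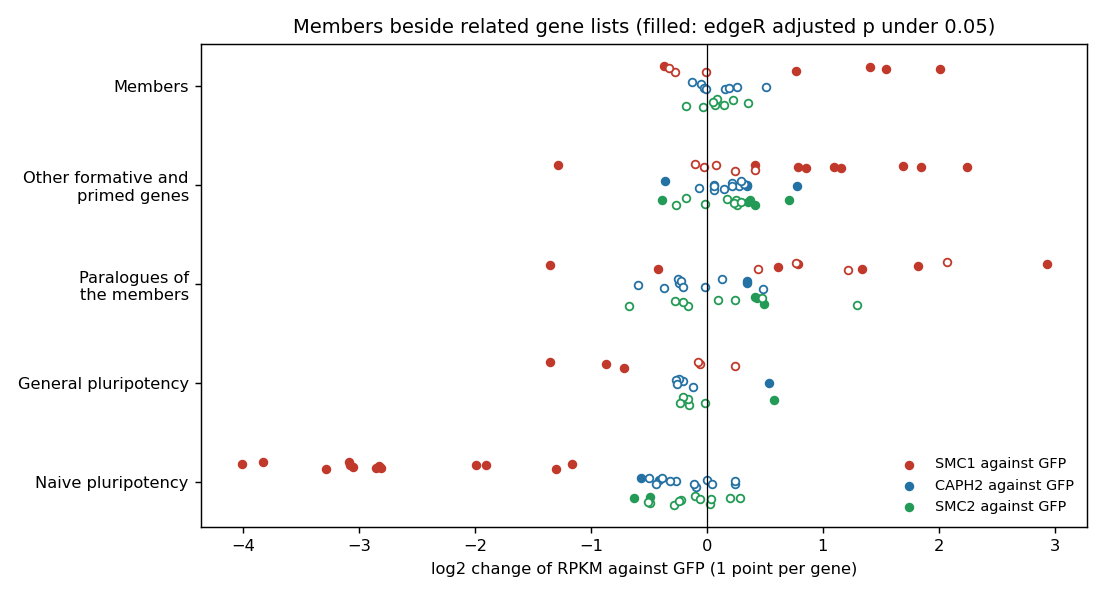
Log2 change of RPKM against GFP (1 point per tested gene) for the 8 genes and 4 related lists, in red for SMC1, blue for CAPH2 and green for SMC2, filled at an edgeR adjusted p under 0.05. All 13 naive genes lie below 0 with SMC1, between -4.01 and -1.16, whereas the 8 formative and primed genes reach from -0.37 to 2.01.

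Markers of other cell types moved in the same libraries, and their part in the members' changes was not tested. Of 10 neural markers 8 were tested, and 4 (Sox1, Pax6, Nes and Map2) were higher with SMC1. The summed RPKM of all 10 was 151.8 with SMC1 against 114.2 with GFP and 118.1 to 134.3 with the condensin hairpins. Tubb3 (RPKM 69.7 with GFP and 58.4 with SMC1) and Hes5 (0.73 and 0.449) were lower but not called. Against the condensin libraries 4 neural markers were higher with SMC1 and 1, Neurod1, was lower (log2 RPKM change -0.62). The neurogenic factor Neurog2 had 47 counts with SMC1 and between 1 and 6 in the other libraries, and the neuronal gene Dcx had 33 against 2 to 8, so neither reached 10 counts in 2 libraries, which the test required. Of 9 fibroblast markers 7 were tested and 5 were higher with SMC1. The summed RPKM of all 9 was 94.3 with SMC1 against 47.2 with GFP and 50.7 to 73.8 with the condensin hairpins. The highest of the condensin values was CAPH2 R1. The 5 were Col1a1 (RPKM 20.8 with GFP and 39.4 with SMC1), Col1a2, Col3a1, Twist2 and Pdgfrb. Of the markers that were not tested, Dcn was at an RPKM of 0.56 with SMC1 and between 0.026 and 0.17 elsewhere, and Lum was at or below 0.125 in every library.

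The remaining marker lists were summed likewise. Neural crest markers (1 of 4 higher with SMC1) summed to 2.01 with GFP and 3.68 with SMC1, and to 2.10 to 2.79 for the condensin hairpins. Primitive endoderm markers (4 of 9 tested higher, 1 lower) summed to 32.01 and 53.6, with 34.7 to 38.9 for condensin, and Afp was at or near 0 throughout. Among them Col4a1 went from an RPKM of 12.2 with GFP to 34.9 with SMC1, while Lama1 went from 13.1 to 6.47. Mesendoderm markers (1 of 5 higher, 2 lower, of which Eomes turned with ERCC scaling) summed to 18.5 and 23.4, with 18.5 to 28.7 for condensin. T went from 6.93 with GFP to 16.4 with SMC1, while Mesp1 went from 2.85 to 0.145. Trophectoderm markers (3 of 5 tested higher, 1 lower) summed to 165.6 and 283.4, with 126.5 to 171.01 for condensin, and Elf5 had at most 1 count in any library. Krt8 went from 51.4 with GFP to 117.5 with SMC1 and Krt18 from 61.0 to 156.4, while Tfap2c fell from 51.2 to 5.85. Cdx2, also called as higher, went from a low 0.325 (15 counts) to 2.59 (107 counts). The sums thus follow a few abundant genes and hide falls in the same lists.

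For each member the genes closest to it in pattern were those with the highest Pearson r of log2(RPKM + 0.1) over the 6 libraries, among 12126 genes with a mean of at least 50 counts. These were Zfp629 and Rcn2 for Sox3, Map6 and Brd2 for Pou3f1, Gpc6 and Kifap3 for Fgf5, and Purg and Trim67 for Sox4. The SMC1 library was the highest for each of these 8 genes, which follows from choosing them by r. Their r lay between 0.992 and 1.00. Likeness in r did not mean a like size of change, since Brd2 rose only from an RPKM of 96.5 to 118.6 while Map6 rose from 3.22 to 6.57. For the members that did not rise the closest were Brd1 and Mdc1 for Zic2, Mak and Terf2 for Zic5, U2af1 and Casq1 for Foxd3, and Mark2 and Mtrf1l for Otx2, with r between 0.984 and 0.997. With 6 points that share 1 GFP and 1 SMC1 library, such values are a description.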

How the data were processed

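RNA-seq was analysed for 6 libraries of V6.5 ESCs, grouped by the sample titles. Libraries were made from RNA of 652000 cells. Per the labels and the study's methods, the authors mapped the reads to mm9 by Bowtie and deposited raw counts of exonic reads for every RefSeq transcript, beside RPKM values that divide the counts by exon length and by the reads of the library. Symbols were found for 25353 of 26073 RefSeq rows. The 92 ERCC rows were left out except as a scaling alternative.

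The 8 genes and the lists were chosen with earlier results of these data known. The genes named were the 8, the knockdown targets, up to 3 genes of each list with the largest called change with SMC1, and the 2 genes most like each of the 8. The primitive endoderm and neural crest lists did not follow this rule. It would have named Foxa2 (log2 RPKM change 2.07), Dab2 (1.44) and Pax3 (2.24). Etv4, the neural and fibroblast markers beyond 3, marker genes at few counts and genes that turned direction were named after their values were seen. So were Cdx2 and, as they weigh on the marker sums, Col4a1, Lama1, T, Mesp1, Krt8, Krt18 and Tfap2c. Folds are of deposited RPKM (hairpins averaged), without pseudocount. Tests used edgeR 4.0.16 (TMM, quasi-likelihood, Benjamini-Hochberg) on rows that reached 10 counts in 2 or more libraries, with the groups GFP, SMC1, CAPH2 and SMC2. A gene high in a single lone library can miss this filter. Alternatives were DESeq2 1.42.0, other scalings, filters and pseudocounts, and leaving out each hairpin. Intervals are exact binomial and cover counting error only. Other steps used R 4.3.3, Python 3.11.15 and scipy 1.17.1.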

Additional observations from a re-analysis of the deposited data

How the results depend on the processing

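ERCC scaling moved most results. The median log2 change of the 8 genes became 1.25 for SMC1, 0.39 for CAPH2 and 0.68 for SMC2 against GFP, -0.32 for CAPH2 against SMC2, and 0.82 for SMC1 against condensin. Over all tested rows these medians were 0.90, 0.34, 0.60, -0.26 and 0.40, in the same order. Zic2 turned to 0.50 (adjusted p = 0.562) against GFP and to 0.11 (0.917) against condensin with SMC1. In that edgeR fit, whose biological coefficient of variation was 0.249 rather than 0.0674, 2341, 5, 0 and 1711 rows were called (SMC1, CAPH2 and SMC2 against GFP, then SMC1 against condensin) in place of 8952, 1498, 1321 and 8197. The 3 rows between CAPH2 and SMC2 became 6 with no filter on counts, 1 with a mean of at least 50 counts and 1 with a single row per gene. Without a filter 2584 rows were called with CAPH2 and 2279 with SMC2 against GFP. DESeq2's Wald test called 940 with CAPH2, and a single row per gene gave 879 with SMC2. Leaving out each hairpin gave 1414 to 4333 rows with CAPH2 and 375 to 3852 with SMC2 against GFP, and 1 to 390 between them, with the most rows without CAPH2 R2 (4333 and 390) or CAPH2 R1 (3852) and the fewest of SMC2 without SMC2 R2 (375). With a replicate block 33 rows differed between CAPH2 and SMC2. Same-numbered libraries did not deviate together (r = 0.0341). Differences between hairpins enter this value, so it cannot decide whether the numbers pair them. Sox3, Pou3f1 and Fgf5 were called with SMC1 against GFP in each of 10 alternatives. Zic5 against condensin was called with no filter (0.0252) and without CAPH2 R1 (0.000589), and Pou3f1 with SMC2 against GFP with no filter (0.0385). The cause of these shifts was not tested. Fgf5, at 120 to 285 counts, is limited most by depth.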
